A study of Homo sapiens with 12 samples.

Results

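Progestins lower as well as raise the RNA of their target genes, and 8 genes whose RNA was strongly lower after the synthetic progestin R5020 are described here in T47D breast cancer cells: IL1R1, VAV3, NUAK2, MECOM, MKX, PCED1B, TTC6 and DSCAM-AS1. They were chosen by their fitted fold change of R5020 over ethanol in these same libraries, so their R5020 differences are given as a description and carry no test. They are 8 of the 55765 genes counted, and all 8 were among the 17727 genes that passed the filter on low counts. T47D is a luminal line that carries both the progesterone and the estrogen receptor.

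The libraries fall into 4 groups of 3: siPRMT1 with R5020, siPRMT1 with ethanol, siCT with R5020 and siCT with ethanol. siPRMT1 is an siRNA that depletes PRMT1, siCT an siRNA of a nonspecific sequence, R5020 was given at 10 nM for 6 h, and ethanol is its vehicle over the same time. Every group is the same cell line, grown in RPMI medium with serum and insulin, and every group received an siRNA, so no group is untransfected. Titles in the labels call the R5020 groups T6H and the ethanol groups T0, while the treatment labels give 6 h for both. The labels state neither the siRNA sequences nor the length of depletion. The study asked whether PRMT1 is needed for the gene response to progestin.

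The progesterone receptor is a nuclear receptor that binds DNA once its ligand is present and recruits coregulators that raise or lower transcription of nearby genes. R5020 (promegestone) is a stable agonist of it. PRMT1 is the main enzyme that places asymmetric dimethylation on arginines of histone H4 and of many RNA-binding and transcription proteins.

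Each library held 26783525 to 34120937 counts, and the lowest count of any of the 8 genes in any library was 49 (NUAK2). PRMT1 itself averaged 7.08 ± 0.258 CPM in siPRMT1 R5020 and 8.23 ± 0.268 CPM in siPRMT1 ethanol, against 43.0 ± 6.89 CPM in siCT R5020 and 37.5 ± 7.83 CPM in siCT ethanol (SD, n = 3 each; CPM are counts divided by the TMM-scaled library size). A pair of siCT libraries stood apart: the share of counts from mitochondrially encoded genes was 52.4% in siCT R5020 replicate 1 and 59.3% in siCT ethanol replicate 3, against 31.3% to 38.3% in the other 10 libraries. All 10 luminal markers, among them ESR1, GATA3 and KRT8, were detected in every group. The 10 markers of basal, leukocyte, stromal and endothelial cells summed to 29.1 to 80.8 CPM, of which COL1A1 made up 28.4 to 78.9 CPM. Of the other 9, each stayed at or below 1.49 CPM, and KRT5, KRT14, PTPRC, CD3E, CD14, COL3A1, PDGFRB and VWF were at 0 in at least 1 library. RNA was measured in bulk, so fewer cells that make a transcript and less of it per cell cannot be told apart.

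IL1R1 encodes the signalling receptor for interleukin-1, through which the cytokine activates NF-kB. It stood at 8.72, 9.77 and 8.35 CPM in the siPRMT1 R5020 libraries and at 41.8, 47.4 and 45.6 CPM in siPRMT1 ethanol. With siCT it stood at 10.8, 13.5 and 15.3 CPM in R5020 and at 106, 108.2 and 90.2 CPM in ethanol. No group's range touched another's, and the 4 groups ran in the order siCT ethanol, siPRMT1 ethanol, siCT R5020, siPRMT1 R5020 from high to low. R5020 went with a 5.02-fold lower level in siPRMT1 cells (log2 -2.33 ± 0.16 SE) and a 7.67-fold lower level in siCT cells (-2.94 ± 0.16). One of 4 annotated IL1R1 start windows held the letters AGAACA, the core recognised by progesterone, glucocorticoid and androgen receptors, and it is shown because it is the one IL1R1 window with any motif searched. It lies at chr2:102141541-102141840 on the plus strand (GRCh38.p14, RefSeq), and the capitals mark that match, which begins 107 bases before the annotated start.
IL1R1 start window: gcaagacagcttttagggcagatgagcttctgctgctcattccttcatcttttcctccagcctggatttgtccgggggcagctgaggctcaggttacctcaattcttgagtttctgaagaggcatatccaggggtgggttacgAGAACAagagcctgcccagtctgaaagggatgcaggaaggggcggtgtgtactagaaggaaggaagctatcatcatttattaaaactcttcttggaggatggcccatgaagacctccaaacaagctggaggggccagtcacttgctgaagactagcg

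VAV3 encodes a signalling protein that acts downstream of cell surface receptors, and it is known as a coactivator of the estrogen and androgen receptors. Levels were 35.2, 41.9 and 36.5 CPM in siPRMT1 R5020 and 234.1, 242.6 and 244.8 CPM in siPRMT1 ethanol. In siCT cells they were 31.6, 38.6 and 39.8 CPM with R5020 and 183.1, 209 and 124 CPM with ethanol. All 3 siPRMT1 ethanol libraries lay above all 3 siCT ethanol libraries, while the R5020 ranges of siPRMT1 and siCT overlapped. The lowest ethanol value, 124 CPM, came from siCT ethanol replicate 3, a library of the pair that stood apart. VAV3 was 6.35-fold lower with R5020 in siPRMT1 cells (log2 -2.67 ± 0.20) and 4.69-fold lower in siCT cells (-2.23 ± 0.19). Its start window, chr1:107688450-107688749 on the minus strand (GRCh38.p14, RefSeq), held the AP-1 letters TGANTCA, the element of FOS and JUN proteins, in capitals below and 116 bases before the start.
VAV3 start window: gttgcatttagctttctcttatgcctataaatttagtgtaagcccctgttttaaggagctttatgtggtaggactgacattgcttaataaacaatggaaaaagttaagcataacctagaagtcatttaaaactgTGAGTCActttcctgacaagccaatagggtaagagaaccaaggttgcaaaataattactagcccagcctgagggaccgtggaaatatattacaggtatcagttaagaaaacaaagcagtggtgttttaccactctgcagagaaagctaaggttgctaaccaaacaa

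NUAK2 is a kinase of the AMPK-related family, activated by LKB1 and tied to myosin phosphatase and actomyosin tension. It stood at 1.84, 1.79 and 1.76 CPM in siPRMT1 R5020 and 11.0, 11.0 and 11.5 CPM in siPRMT1 ethanol. The siCT values were 3.996, 3.695 and 3.28 CPM with R5020 and 13.5, 10.7 and 8.86 CPM with ethanol. The ethanol ranges of siPRMT1 and siCT overlapped, and every siPRMT1 R5020 library lay below every siCT R5020 library. R5020 went with a 6.19-fold lower level in siPRMT1 cells (log2 -2.63 ± 0.18) and a 3.03-fold lower level in siCT cells (-1.60 ± 0.17), the smallest siCT fold of the 8 genes. None of the 5 motifs searched was in its start window.

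MECOM encodes the zinc-finger transcription factor EVI1/PRDM3, known for its part in blood stem cells and leukaemia. MECOM counts were 50 to 65 reads per library in siPRMT1 R5020 and 58 to 84 in siCT R5020. It stood at 1.61, 2.19 and 2.05 CPM in siPRMT1 R5020 and 13.6, 14.2 and 14.6 CPM in siPRMT1 ethanol. In siCT cells it stood at 2.34, 2.32 and 2.53 CPM with R5020 and 14.3, 17.7 and 12.3 CPM with ethanol. Ethanol levels overlapped between siPRMT1 and siCT, and all siPRMT1 R5020 libraries were just below all siCT R5020 libraries, by 0.446 CPM on average. The R5020 difference was 7.24-fold in siPRMT1 cells (log2 -2.86 ± 0.18), the largest of the 8 there, and 6.17-fold in siCT cells (-2.62 ± 0.18). Of 3 MECOM start windows, the second is shown since it held 2 of the motifs: the forkhead letters TGTTTAC, bound by FOXA1 among others, 162 bases before the start, and the estrogen receptor half-site AGGTCA on the other strand, read as TGACCT, 71 bases before it. The window is chr3:169147422-169147721 on the minus strand (GRCh38.p14, RefSeq), with both matches in capitals. The third window held a GATA motif 30 bases before its start.
MECOM start window: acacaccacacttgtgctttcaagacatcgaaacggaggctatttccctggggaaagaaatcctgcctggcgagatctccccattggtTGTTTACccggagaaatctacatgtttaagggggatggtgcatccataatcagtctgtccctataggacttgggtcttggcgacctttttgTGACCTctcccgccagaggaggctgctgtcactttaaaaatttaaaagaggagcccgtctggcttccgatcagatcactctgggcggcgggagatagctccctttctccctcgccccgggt

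MKX (Mohawk) is a TALE-class homeobox factor known for tendon development in mice. It stood at 4.43, 4.15 and 4.57 CPM in siPRMT1 R5020 and 15.2, 14.5 and 15.2 CPM in siPRMT1 ethanol. The siCT libraries gave 2.10, 2.98 and 3.65 CPM in R5020 and 16.6, 21.6 and 11.6 CPM in ethanol. All siPRMT1 R5020 libraries were above all siCT R5020 libraries, and the ethanol ranges overlapped. The highest and the lowest ethanol levels were both siCT libraries, replicate 2 and replicate 3. R5020 went with a 3.41-fold lower level in siPRMT1 cells (log2 -1.77 ± 0.23), the smallest of the 8 there, and with a 5.68-fold lower level in siCT cells (-2.51 ± 0.24). The start window at chr10:27745770-27746069 on the minus strand (GRCh38.p14, RefSeq) held AGAACA, in capitals, 25 bases past the start, and it is the other of the 2 genes with this receptor half-site.
MKX start window: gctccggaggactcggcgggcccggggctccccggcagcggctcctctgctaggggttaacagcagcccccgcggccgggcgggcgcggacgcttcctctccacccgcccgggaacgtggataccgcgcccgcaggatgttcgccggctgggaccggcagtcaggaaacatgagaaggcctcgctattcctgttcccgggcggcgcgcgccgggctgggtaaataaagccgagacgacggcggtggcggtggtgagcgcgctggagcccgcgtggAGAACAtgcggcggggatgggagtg

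PCED1B encodes a protein with a PC-esterase domain whose role in cells is poorly described. It stood at 2.65, 3.10 and 3.78 CPM in siPRMT1 R5020 and 19.0, 16.7 and 16.8 CPM in siPRMT1 ethanol. Its siCT values were 2.78, 2.29 and 1.94 CPM with R5020 and 27.9, 24.5 and 23.8 CPM with ethanol. All siPRMT1 ethanol libraries were below all siCT ethanol libraries, and the R5020 ranges overlapped, so PCED1B had the smaller span between treatments in siPRMT1 cells. The difference was 5.50-fold in siPRMT1 cells (log2 -2.46 ± 0.18) and 10.9-fold in siCT cells (-3.45 ± 0.19), the largest siCT fold of the 8. No motif searched was in its start window.

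TTC6 encodes a tetratricopeptide repeat protein and is the chromosome 14 neighbour of FOXA1. Levels were 3.75, 4.81 and 3.84 CPM in siPRMT1 R5020 and 21.2, 18.8 and 21.7 CPM in siPRMT1 ethanol. In siCT cells they were 5.97, 4.74 and 3.84 CPM with R5020 and 17.9, 25.2 and 38.5 CPM with ethanol. Ranges of siPRMT1 and siCT overlapped under both treatments. Its siCT ethanol libraries spread the most of the 8 genes relative to their mean, with an SD of 10.5 CPM around 27.2 CPM, and the top value, 38.5 CPM, was the library with the 59.3% mitochondrial share. TTC6 was 4.97-fold lower with R5020 in siPRMT1 cells (log2 -2.31 ± 0.26) and 5.60-fold lower in siCT cells (-2.48 ± 0.26). Its start window held none of the motifs.

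DSCAM-AS1 is a long noncoding RNA of luminal, estrogen receptor-positive breast cancer, transcribed within the DSCAM gene on chromosome 21. It stood at 47.2, 55.5 and 50.03 CPM in siPRMT1 R5020 and 217.1, 204.2 and 216.9 CPM in siPRMT1 ethanol. With siCT it stood at 33.9, 27.9 and 26.6 CPM in R5020 and 124.5, 170.0 and 205.5 CPM in ethanol. All siPRMT1 R5020 libraries were above all siCT R5020 libraries, and the ethanol ranges overlapped at 1 siCT library, replicate 3. R5020 went with a 4.18-fold lower level in siPRMT1 cells (log2 -2.06 ± 0.19) and a 5.65-fold lower level in siCT cells (-2.50 ± 0.19). Whether the counting used strand is not stated, so reads from stretches shared by DSCAM-AS1 and DSCAM cannot be told apart. No start window was matched for it.

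**Figure D1:**
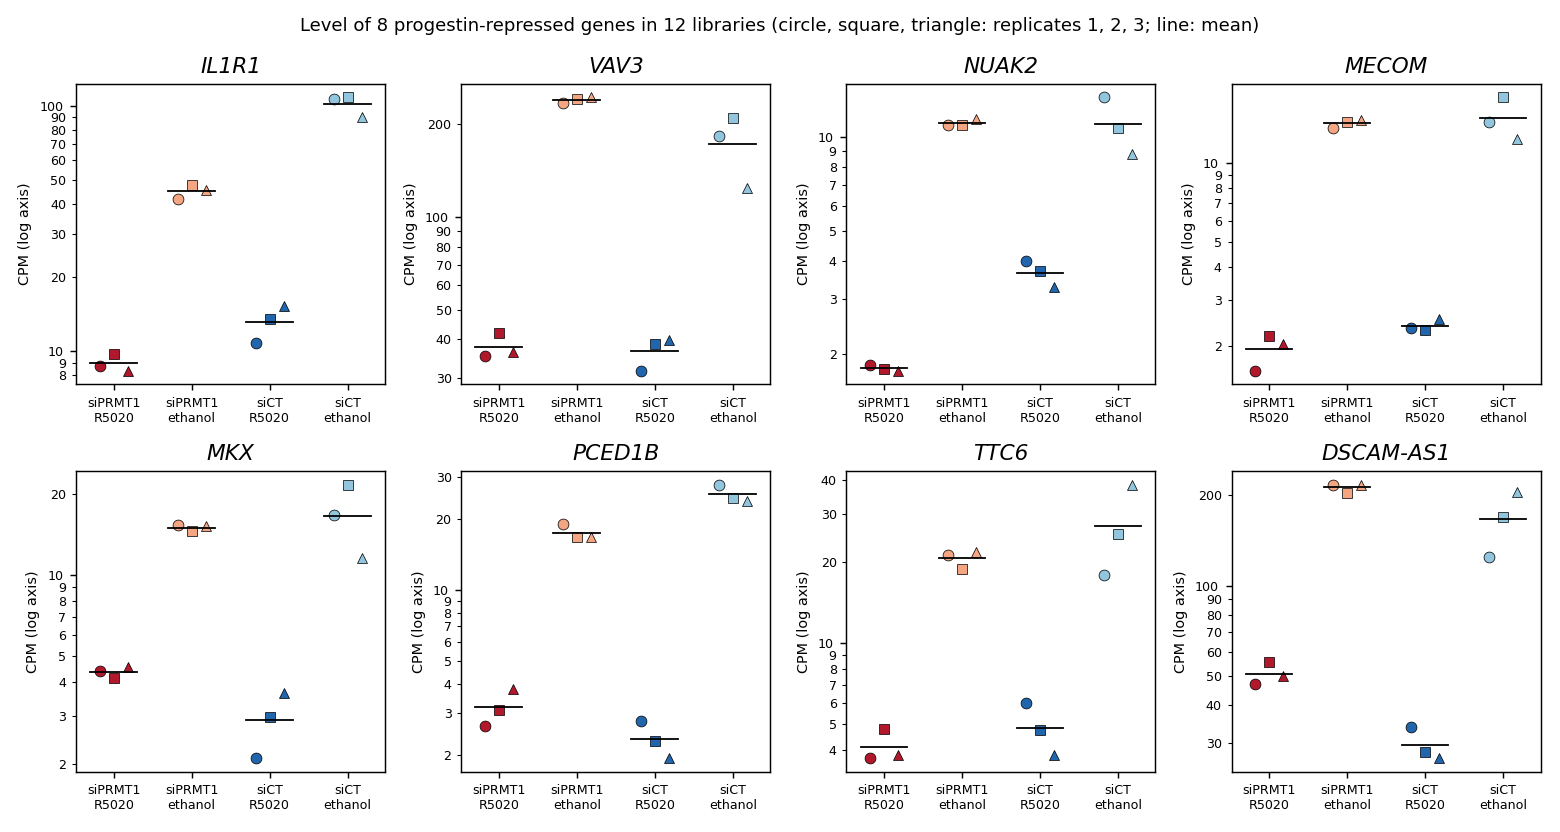
Level of each gene in the 12 libraries, in CPM on a log axis, by group; symbols are replicates and lines are group means. In all 8 panels the R5020 libraries lie below the ethanol libraries of the same siRNA, and the siCT ethanol libraries spread more than the siPRMT1 ethanol libraries.

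Set side by side, the R5020 and ethanol libraries did not overlap for 8 of 8 genes in siPRMT1 cells and for 8 of 8 in siCT cells, as the choice of genes fixes. The same held for 25.5% of all genes tested in siPRMT1 cells and 10.3% in siCT cells. Of all genes tested, edgeR called 6.08% lower and 9.3% higher with R5020 in siPRMT1 cells, and 5.43% lower and 7.59% higher in siCT cells. In siPRMT1 cells that is 1648 genes higher and 1077 lower, and with library totals alone it was 897 higher and 1167 lower. The median log2 difference of the 8 genes was -2.39 in siPRMT1 cells and -2.50 in siCT cells, against medians of -0.004 and -0.043 over all genes tested. Nothing is read from these counts, since the same contrasts chose the genes.

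Ranked by fitted fold among the 10672 tested genes that averaged 5 CPM or more, the 8 genes all lay within the lowest 37 in both kinds of cells, where rank 1 is the strongest fall. MECOM ranked 2 in siPRMT1 cells and 4 in siCT cells, and VAV3 ranked 4 and 9. NUAK2 ranked 5 in siPRMT1 cells and 37 in siCT cells. The opposite order was seen for MKX, at 37 in siPRMT1 cells and 5 in siCT cells. PCED1B ranked 10 in siPRMT1 cells and 2 in siCT cells, IL1R1 11 and 3, TTC6 13 and 7, and DSCAM-AS1 20 and 6. AMIGO2, described further on, held rank 1 in both and is not one of the 8.

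**Figure D2:**
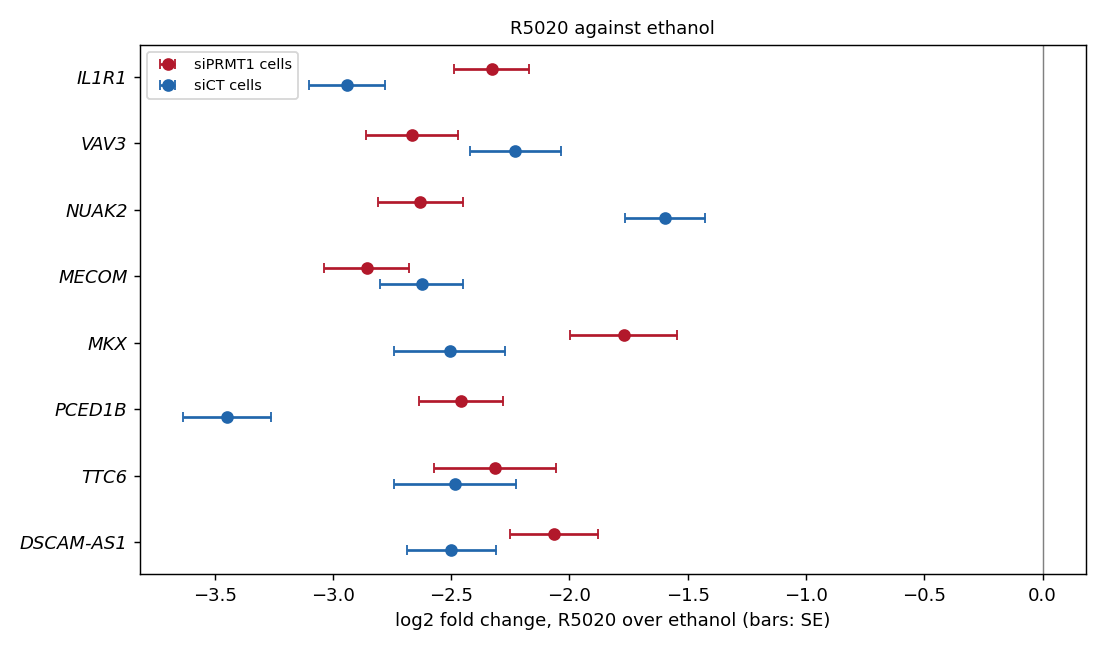
Fitted log2 fold change of R5020 over ethanol for each gene in siPRMT1 cells (red) and siCT cells (blue), with bars of 1 SE from the fit over 12 libraries. The fit shares each gene's spread among all groups, so the bars do not show the wider spread of the siCT ethanol libraries. All values lie below -1.5; NUAK2, MECOM and VAV3 were further from 0 in siPRMT1 cells, and the other 5 genes were further from 0 in siCT cells, TTC6 by less than 1 SE.

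The fitted R5020 difference was larger in siPRMT1 cells for 3 genes and larger in siCT cells for 5, and these contrasts of contrasts use the libraries that chose the genes. With the log2 R5020 difference of siCT cells subtracted from that of siPRMT1 cells, NUAK2 was at -1.03 ± 0.24 (SE), VAV3 at -0.44 ± 0.26 and MECOM at -0.23 ± 0.24. On the other side PCED1B was at 0.99 ± 0.24, MKX at 0.73 ± 0.32, IL1R1 at 0.61 ± 0.21, DSCAM-AS1 at 0.43 ± 0.25 and TTC6 at 0.17 ± 0.35. NUAK2 and PCED1B thus had the largest values in either direction, and TTC6 and MECOM were within 1 SE of 0. Of all 17727 genes tested, 14 were called in this contrast of contrasts. For the 8 genes the values are a description and no call is read. They do not show equal responses in siPRMT1 and siCT cells. The median over the 8 genes was 0.30, against 0.04 over all genes tested. Without the pair of siCT libraries that stood apart, PCED1B was at 1.17, NUAK2 at -0.84 and TTC6 at 0.01. TTC6 was at -0.23 without siCT ethanol replicate 3 and also below 0 with library totals or voom weights, which makes the split 4 genes and 4. DSCAM-AS1 was at 0.19 without siCT ethanol replicate 3.

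Leaving out that pair also moved the siCT differences by small amounts. PCED1B was then at -3.63 (log2), IL1R1 at -2.90, MECOM at -2.73 and MKX at -2.53. DSCAM-AS1 stood at -2.44, TTC6 and VAV3 both at -2.33, and NUAK2 at -1.80. The order of the 8 genes by siCT difference began with PCED1B and IL1R1 and ended with NUAK2 with or without the pair.

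The level of the genes with depleted PRMT1 can be tested, because the average of siPRMT1 over siCT in both treatments is independent of the R5020 differences that chose the genes when libraries spread alike. The siCT libraries spread more than the siPRMT1 libraries, so this independence is approximate. In this comparison 1 of 8 genes was called higher, where 21.6% of all genes tested were, and 2 of 8 were called lower, where 26.9% were. These shares are near those of all genes and are no result about the 8 genes as a set. The median of the 8 was -0.11 (log2), against -0.05 over all genes tested.

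IL1R1 fell 1.83-fold with siPRMT1 (log2 -0.87 ± 0.11 SE, Benjamini-Hochberg adjusted p = 4.62e-05 over all genes tested, from the quasi-likelihood test of edgeR). In its 6 siPRMT1 libraries the level was below that of the siCT libraries of the same treatment in every case. The difference was -1.18 ± 0.15 in ethanol and -0.56 ± 0.15 in R5020. Without the pair that stood apart the average was -0.96 (adjusted p = 1.01e-06).

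NUAK2 fell 1.42-fold with siPRMT1 over both treatments (log2 -0.50 ± 0.12, adjusted p = 0.00424). The value was -1.02 ± 0.18 in R5020 and 0.01 ± 0.16 in ethanol, a gap that shares libraries with the choice of genes and is given without a test. In ethanol siPRMT1 and siCT libraries averaged 11.15 and 11.01 CPM. Scaled by library totals alone the average was -0.41 and no longer called (adjusted p = 0.142), and without the pair it was -0.53 (adjusted p = 0.00069).

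DSCAM-AS1 rose 1.49-fold with siPRMT1 (log2 0.57 ± 0.13, adjusted p = 0.00265). It was at 0.79 ± 0.18 in R5020, with no overlap between siPRMT1 and siCT, and at 0.35 ± 0.18 in ethanol, with overlap. Without the pair the average was 0.73 (adjusted p = 4.24e-05) and the ethanol value 0.54, while without siCT ethanol replicate 1 the ethanol value was 0.18. PGR, the receptor that R5020 acts on, moved in the same direction: it stood at 265.5 to 282.3 CPM in siPRMT1 R5020 and 1106 to 1147 CPM in siPRMT1 ethanol, against 133.9 to 190.6 CPM in siCT R5020 and 406.6 to 655.3 CPM in siCT ethanol, and its part in the values of the 8 genes was not tested.

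The other 5 genes were not called in the average, which does not show that siPRMT1 and siCT were alike. Their averages were 0.27 ± 0.13 for VAV3 (adjusted p = 0.108), 0.21 ± 0.16 for MKX (adjusted p = 0.279), -0.31 ± 0.18 for TTC6 (adjusted p = 0.157), -0.18 ± 0.12 for MECOM (adjusted p = 0.23) and -0.05 ± 0.12 for PCED1B (adjusted p = 0.786). PCED1B joined opposite values, 0.45 ± 0.18 in R5020 and -0.54 ± 0.16 in ethanol. MKX stood at 0.58 ± 0.23 in R5020 and -0.15 ± 0.22 in ethanol. This ethanol value lay within 1 SE of 0 and was 0.075 without siCT ethanol replicate 2. VAV3 was at 0.05 ± 0.19 in R5020 and 0.48 ± 0.18 in ethanol, TTC6 at -0.23 ± 0.26 and -0.40 ± 0.24 (-0.005 in ethanol without siCT ethanol replicate 3), and MECOM at -0.30 ± 0.18 and -0.07 ± 0.16. Single libraries decided some of these calls: TTC6 was called without siCT ethanol replicate 1 (-0.43, adjusted p = 0.0314) and VAV3 without siCT ethanol replicate 2 (0.34, adjusted p = 0.0299). Without the pair that stood apart, TTC6 was at -0.05, MKX at 0.04 and VAV3 at 0.13.

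**Figure D3:**
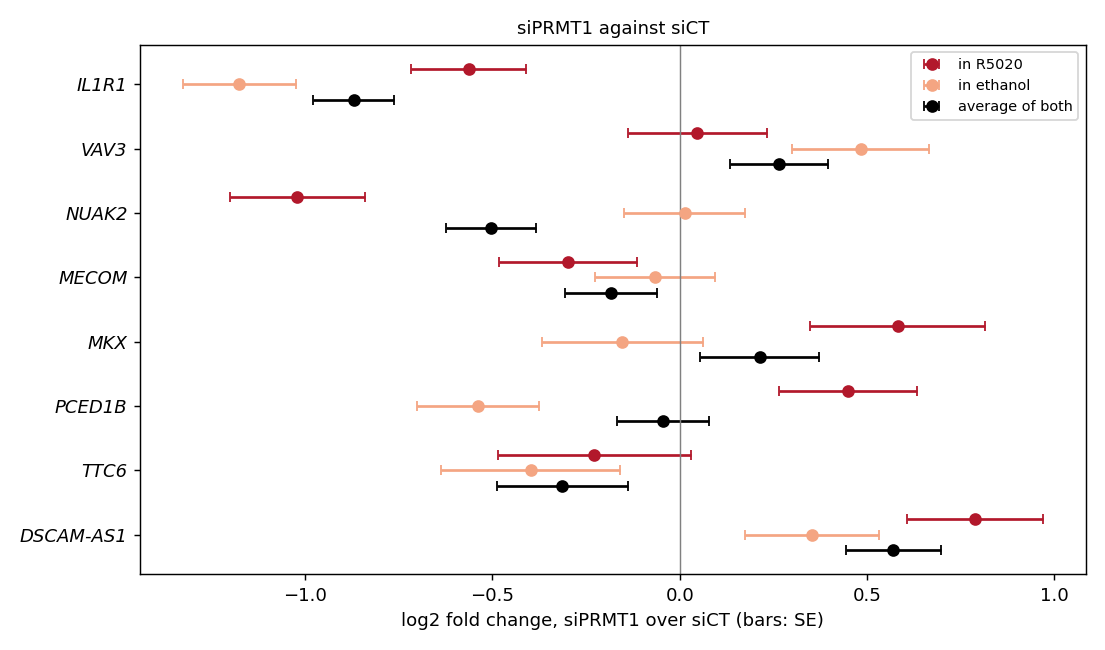
Fitted log2 fold change of siPRMT1 over siCT for each gene in R5020 (red), in ethanol (orange) and averaged over both (black), with bars of 1 SE. IL1R1 lies below 0 in all 3, DSCAM-AS1 above 0 in all 3, and PCED1B lies above 0 in R5020 and below 0 in ethanol.

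Per kilobase of merged exon (GENCODE v29), the 8 genes differed widely in level. DSCAM-AS1 had the highest CPM per kilobase, 28.8 in siPRMT1 R5020, 120.3 in siPRMT1 ethanol, 16.7 in siCT R5020 and 94.2 in siCT ethanol. VAV3 came next in ethanol, at 33.1 in siPRMT1 cells and 23.7 in siCT cells. IL1R1 stood at 6.34 and 14.3 in the same groups and PCED1B at 6.68 and 9.70. MKX, TTC6 and NUAK2 lay between 2.46 and 4.04, and MECOM was lowest at 1.55 and 1.62. After R5020 DSCAM-AS1 still stood above the ethanol level per kilobase of every other gene but VAV3 in siPRMT1 cells, and above that of all but VAV3 in siCT cells.

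Across the 12 libraries each gene's log2 CPM followed the mean of the other 7 with a Pearson r of 0.923 (NUAK2) to 0.993 (MECOM). These points share libraries, scaling and the R5020 difference that chose the genes, so the values describe the choice. Profiles were searched among 10133 genes that averaged 5 CPM or more, a number that includes the 8. It leaves out 539 genes with clone names. Outside the 8, the closest to their mean profile were FNBP1 (r = 0.990), an F-BAR protein that bends membranes, and RNF152 (r = 0.990), a lysosomal ubiquitin ligase. Next came ARID5B (r = 0.989), a DNA-binding cofactor, RAB30 (r = 0.989), a small GTPase, and AMIGO2 (r = 0.987), an adhesion protein. Likeness of profile did not mean likeness of size: FNBP1 had a log2 R5020 difference of -0.72 in siPRMT1 cells and -0.79 in siCT cells, and AMIGO2 had -3.79 and -4.46. For single genes the nearest were SMAD3 for PCED1B (r = 0.981), C2orf72 for IL1R1 (r = 0.980), RAB30 for MECOM (r = 0.992) and PXK for MKX (r = 0.995). AMIGO2 was nearest to TTC6 (r = 0.989), ESRP1, an epithelial splicing regulator, to DSCAM-AS1 (r = 0.994), PAX9 to VAV3 (r = 0.995) and DUSP5, an ERK phosphatase, to NUAK2 (r = 0.981).

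RefSeq start windows (GRCh38.p14; 300 bases, 250 before and 50 after the annotated start) were matched by symbol for 7 of the 8 genes, 12 windows in all. The receptor half-site AGAACA, read on both strands with TGTTCT, was in 2 of these 12 windows and in 14.8% of all 35116 windows. AGGTCA or TGACCT was in 1 of the 12 and 13.8% of all windows, TGTTTAC or GTAAACA in 1 and 3.42%, the AP-1 letters TGANTCA in 1 and 7.71%, and GATAAG or CTTATC in 1 and 6.36%. These motifs do not overlap each other in the sequences printed above. A match is a run of letters and not a measured binding site, and the absence of a match in PCED1B, TTC6 and NUAK2 says only that these letters are not in these windows.

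The genes next to the 8 were looked at in the same libraries, taking those that overlap each gene and the nearest 2 on each side (RefSeq order, GRCh38.p14). Of 36 neighbours, 20 were expressed enough to be tested, and among these R5020 went with 4 that fell and 1 that rose in siPRMT1 cells, and likewise 4 fell and 1 rose in siCT cells. The falls were AMIGO2, DSCAM, FOXA1 and MPP7 in both kinds of cells, and the rise was ACTRT3. AMIGO2 overlaps PCED1B and DSCAM overlaps DSCAM-AS1, so their falls may include reads of those chosen genes. Over all genes tested 6.08% fell and 9.3% rose in siPRMT1 cells and 5.43% fell and 7.59% rose in siCT cells; the median log2 value of the 20 neighbours was -0.41 and -0.43. The number that fell in siCT cells was 7 without siCT ethanol replicate 1 and 8 without the pair that stood apart, and the number in siPRMT1 cells was 6 without the pair. The single rise was not called in siCT cells without siCT R5020 replicate 2, nor in siPRMT1 cells without siPRMT1 ethanol replicate 2 or 3 or siPRMT1 R5020 replicate 1, and it was joined by another without siCT ethanol replicate 3 in siCT cells.

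AMIGO2, which overlaps PCED1B, averaged 2.01 ± 0.248 CPM in siPRMT1 R5020 and 27.8 ± 1.47 CPM in siPRMT1 ethanol, a 13.8-fold fall (adjusted p = 2.66e-07). In siCT cells it averaged 2.28 ± 0.221 CPM with R5020 and 50.4 ± 18.4 CPM with ethanol, a 22.02-fold fall (adjusted p = 9.59e-08). It thus fell further than PCED1B in both, and without a known strand setting, reads from overlapping stretches of the pair cannot be told apart. FOXA1, the pioneer factor that opens chromatin for steroid receptors in luminal cells and lies next to TTC6, averaged 186.3 ± 4.25 CPM in siPRMT1 R5020 and 716.6 ± 13.6 CPM in siPRMT1 ethanol, a 3.85-fold fall (adjusted p = 8.35e-06). The siCT levels of FOXA1 were 274.1 ± 38.2 CPM with R5020 and 617.6 ± 131 CPM with ethanol, a 2.25-fold fall (adjusted p = 0.000606). DSCAM, the neuronal adhesion gene that DSCAM-AS1 lies within, averaged 0.829 ± 0.0764 CPM in siPRMT1 R5020 and 4.95 ± 0.333 CPM in siPRMT1 ethanol. DSCAM thus fell 5.93-fold in siPRMT1 cells (adjusted p = 1.77e-06) and 4.55-fold in siCT cells (adjusted p = 9.2e-06). Reads from stretches that DSCAM shares with DSCAM-AS1 cannot be told apart either.

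MPP7, a cell polarity protein and the second gene from MKX on one side, fell 1.77-fold in siPRMT1 cells (adjusted p = 0.0395) and 1.88-fold in siCT cells (adjusted p = 0.0268). Its call was lost in siPRMT1 cells without siCT R5020 replicate 2 or any one siPRMT1 library, and in siCT cells without siCT ethanol replicate 2, siCT R5020 replicate 1 or siCT R5020 replicate 2. ACTRT3, an actin-related protein and the second gene from MECOM on one side, rose 1.87-fold in siPRMT1 cells (adjusted p = 0.0114) and 1.81-fold in siCT cells (adjusted p = 0.0115). The neighbours adjacent to VAV3 and NUAK2 that could be tested were not called: SLC25A24 had a log2 difference of -0.004 in siPRMT1 cells and 0.02 in siCT cells, and TMCC2 had -0.75 and -0.22. Not called either were 4 adjacent genes and MAP4K4, the second gene from IL1R1 on one side and its nearest tested neighbour, at 0.13 in siPRMT1 cells and 0.31 in siCT cells. Of the 4, RPAP3 beside PCED1B had -0.44 in siPRMT1 cells and -0.53 in siCT cells, RAB18 beside MKX -0.35 and -0.57, GOLIM4 beside MECOM 0.01 and 0.17, and PCP4 beside DSCAM-AS1 -0.06 and 0.05. The other interleukin-1 receptor genes beside IL1R1, namely IL1R2, IL1RL2 and IL1RL1, reached no more than 10 counts in any library and were not tested.

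**Figure D4:**
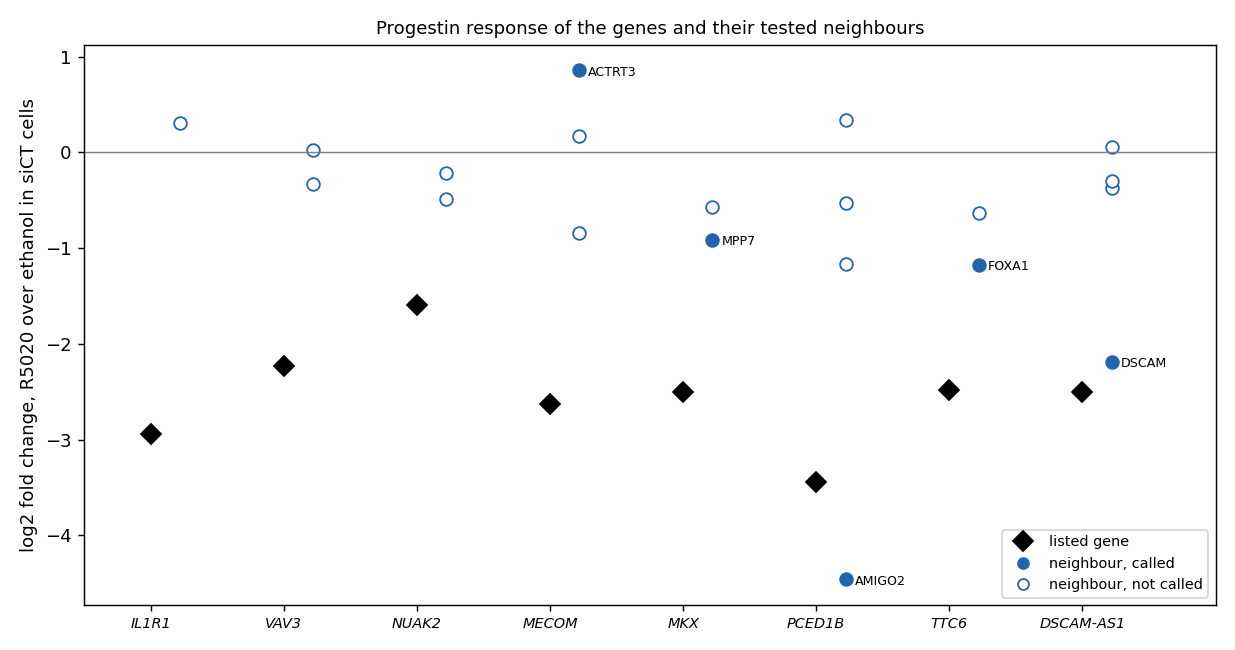
Fitted log2 fold change of R5020 over ethanol in siCT cells for the 8 genes (black diamonds) and their tested neighbours (circles, filled where called). AMIGO2 at -4.46 lies below PCED1B, DSCAM at -2.19 lies close to DSCAM-AS1, and most open circles lie within 1 of 0.

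Genes that work with the 8 were taken as families and pathways, with the 8 themselves left out. Their counts stand beside those of all genes tested, of which 9.3% rose and 6.08% fell in siPRMT1 cells (median log2 -0.004) and 7.59% rose and 5.43% fell in siCT cells (median -0.043), and nothing particular to a list is read from them. Around IL1R1, 16 genes of the interleukin-1 receptor family and its signalling were tested: with R5020, 1 rose and 2 fell in siPRMT1 cells (median log2 0.02) and 1 rose and 2 fell in siCT cells (median -0.09). The kinases that relay the receptor's signal moved apart. IRAK2 fell 2.27-fold in siPRMT1 cells (adjusted p = 0.00705) and 1.95-fold in siCT cells (adjusted p = 0.0314), IRAK4 fell 1.536-fold (adjusted p = 0.0106) and 1.503-fold (adjusted p = 0.0174), and IRAK1 rose 1.497-fold (adjusted p = 0.015) and 1.489-fold (adjusted p = 0.0189). The number that fell in siPRMT1 cells was 4 without siCT ethanol replicate 3 and 1 without siPRMT1 ethanol replicate 3, siPRMT1 R5020 replicate 1 or siPRMT1 R5020 replicate 3. The siCT number was 0 without siCT R5020 replicate 2 and 1 without siCT ethanol replicate 2, siCT R5020 replicate 3 or any siPRMT1 library except siPRMT1 R5020 replicate 1. The IRAK1 call was lost in siCT cells without siCT R5020 replicate 2 or 3 and in siPRMT1 cells without any one siPRMT1 library except siPRMT1 R5020 replicate 1. IRAK4 lost its call in siPRMT1 cells without siPRMT1 ethanol replicate 3, siPRMT1 R5020 replicate 1 or siPRMT1 R5020 replicate 3, and in siCT cells without siCT ethanol replicate 3, siCT R5020 replicate 2 or siCT R5020 replicate 3. IRAK2 kept its siCT call under 8 of 20 alternatives.

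Around NUAK2, 26 AMPK-related kinases and partners were tested, of which 2 rose and 2 fell in siPRMT1 cells (median 0.03) and 2 rose and 1 fell in siCT cells (median 0.04). PRKAB2, a regulatory subunit of AMPK, rose 3.74-fold in siPRMT1 cells (adjusted p = 2.09e-06) and 2.76-fold in siCT cells (adjusted p = 2.35e-05). SIK1, a salt-inducible kinase, rose 4.56-fold (adjusted p = 0.00011) and 3.73-fold (adjusted p = 0.000435). HUNK fell 2.40-fold in siPRMT1 cells (adjusted p = 0.000828) and had a log2 value of -0.60 in siCT cells (adjusted p = 0.0791); the difference was not tested. Without siCT ethanol replicate 2 the number that rose was 4 in siPRMT1 cells and 5 in siCT cells. The number that fell was 1 in siPRMT1 cells without siCT R5020 replicate 2 or 3 or any one siPRMT1 library. In siCT cells it was 2 without siCT ethanol replicate 1 or 3 and 0 without siCT R5020 replicate 2 or 3, siPRMT1 ethanol replicate 1 or 2, or siPRMT1 R5020 replicate 3.

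For MECOM, 16 genes of the PRDM family and of EVI1 partners were tested, with 2 that rose and 3 that fell in siPRMT1 cells (median -0.10) and the same counts in siCT cells (median -0.17). PRDM1 (Blimp-1), a repressor of the same family, rose 14.3-fold in siPRMT1 cells (adjusted p = 7.57e-08) and 10.8-fold in siCT cells (adjusted p = 2.42e-07), the opposite direction to MECOM. SMAD3, a TGF-beta effector that EVI1 binds, fell 2.27-fold (adjusted p = 3.56e-05) and 2.71-fold (adjusted p = 7.73e-06), and PRDM6 fell 2.62-fold (adjusted p = 0.00035) and 1.80-fold (adjusted p = 0.0219). In siPRMT1 cells 5 fell without siCT ethanol replicate 3, and in siCT cells 1 rose without siCT R5020 replicate 2 or 3. PRDM6 lost its siCT call without siCT ethanol replicate 3, siCT R5020 replicate 2 or siCT R5020 replicate 3.

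For MKX, 15 other TALE homeobox genes were tested; 2 rose and 4 fell in siPRMT1 cells (median -0.16) and 2 rose and 2 fell in siCT cells (median -0.24). PKNOX2 rose 7.62-fold in siPRMT1 cells (adjusted p = 9.76e-06) and 3.92-fold in siCT cells (adjusted p = 0.000556). MEIS1 fell 2.76-fold (adjusted p = 9.31e-05) and 1.70-fold (adjusted p = 0.0108), and TGIF1, a repressor of TGF-beta signalling, rose 1.86-fold (adjusted p = 0.000689) and 1.74-fold (adjusted p = 0.00192). Without siCT R5020 replicate 2 the MEIS1 call in siCT cells was lost and 1 gene fell there. Of the 3 tested relatives of PCED1B and DSCAM, DSCAM fell as given above, while PCED1A had log2 values of 0.08 in siPRMT1 cells and -0.19 in siCT cells and DSCAML1 had -0.30 and -0.66; none of these 4 values was called, and DSCAML1 was called in siCT cells without siCT ethanol replicate 2.

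Smaller differences among these neighbours and relatives depended on the scaling. With library totals alone, IRAK1, TGIF1, MPP7 and ACTRT3 were not called in siPRMT1 cells or in siCT cells, and IRAK2, IRAK4 and MEIS1 were not called in siCT cells. AMIGO2, DSCAM, FOXA1, PRKAB2, SIK1, PRDM1, SMAD3 and PKNOX2 were called in both kinds of cells under all 20 alternatives.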

How the data were processed

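RNA of T47D cells was measured by RNA-seq in 12 libraries, 3 biological replicates per group per the labels' protocols, with mRNA libraries of the Lexogen SENSE kit. The authors deposited raw read counts per gene symbol for 55765 genes. Tools named per the submitters' processing notes are HTSeq 0.9.1, Bowtie2 2.3.2.2 and DESeq2, with the build hg19. Neither the roles of these tools nor the annotation release nor the strand setting is given in the sources used here. Reads from stretches where antisense partners overlap therefore cannot be told apart. A table of the authors' own comparisons was not used here.

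Tests used edgeR 4.0.16 under R 4.3.3, with filterByExpr, TMM scaling and 1 mean per group over all 12 libraries. The quasi-likelihood test was used with Benjamini-Hochberg adjustment over 17727 genes, and genes were called at an adjusted p under 0.05. Each gene's spread was estimated over all groups together, so SEs and p-values do not reflect that siCT libraries spread more. A simulation covered the siPRMT1 average only, with the same spread for all genes and libraries, unlike the real libraries. SDs are over 3 libraries. The members and lists were chosen with earlier results of these data known. Beside the 8 genes, the text names overlapping or adjacent neighbours, other neighbours that were called, up to 3 genes per list by adjusted p, and the nearest profiles by Pearson r of log2 CPM (prior count 0.5). One gene list is not reported here. Replicates of a group differed by more than sampling noise in every case. Alternatives were DESeq2 1.42.0, its size factors, library totals, no filter, limma 3.58.1 voom with quality weights, a replicate block, fits of 6 libraries, and leaving out libraries.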

Additional observations from a re-analysis of the deposited data

How the results depend on the processing

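The call of 3 of the 8 genes in the siPRMT1 average ranged from 2 to 4 over 19 alternatives and was 3 with a replicate block. The block gave 7965 genes called in that average, against 8582, and changed no call of the 8 genes there. For R5020 it gave 2278 against 2725 in siPRMT1 cells and 1890 against 2308 in siCT cells. In their deviations, same-numbered libraries of different groups correlated at -0.612 to 0.257 (18 pairs). Differently numbered ones correlated at -0.553 to 0.769 (36 pairs). The highest value joined the siCT libraries that stood apart, so these correlations cannot settle whether the numbers pair libraries. Genes called for R5020 in siPRMT1 cells numbered 8179 with voom quality weights, 5226 when the siCT pair that stood apart was left out and 7813 in a fit of the 6 siPRMT1 libraries. In siCT cells they numbered 3568 without that pair and 898 in a fit of the 6 siCT libraries. What set these numbers apart was not tested. Leaving out 1 library gave 1831 to 3820 genes in siPRMT1 cells and 1550 to 3029 in siCT cells. With library totals alone the siPRMT1 calls split 897 higher and 1167 lower, against 1648 and 1077, and the median of all genes moved to -0.175 from -0.004. PCED1B turned sign in the siPRMT1 average with library totals (0.072), voom weights (0.019) and without the pair (0.012), and ranged from -0.119 to 0.026 without 1 library; the cause was not tested. Of 152 such alternatives for the 8 genes, 144 kept direction and side of the threshold. Of 776 values without a test, 14 moved by 1 SD or more. The SD is that between replicates of the groups compared, and of the siCT groups for the contrast of contrasts. A change of sign within that SD was not counted as moved, as for TTC6 in the contrast of contrasts. Of 560 list counts, 122 moved by over 1.5 times. Counts as low as 49 (NUAK2 in siPRMT1 R5020) limit the R5020 levels.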
